A study of Mus musculus with 6 samples.

Results

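Collagens are the proteins that give the kidney's matrix its strength, and 37 genes encoding their chains were followed here in mouse kidney RNA sequencing. A gene was included when its symbol had the form of a collagen chain (Col, a type number, a, a chain number) and its raw read counts summed to 60 or more over the 6 libraries. Of 54146 genes in the count files, 44 had such a symbol and 37 reached that sum. They comprise 9 fibrillar genes, 6 genes of basement membrane collagen (type IV), 6 genes of beaded filament collagen (type VI) and 16 others.

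RNA came from whole kidneys of B6C3F1/J mice aged 12 weeks (postnatal day 84). By their labels, both groups carry the floxed Tfam gene. One, labelled Tfam f/f, has no Cre in its label. The other, labelled KspCre Tfam f/f, by its label also carries Cre under the promoter of Ksp-cadherin (Cdh16). That promoter is active in tubule epithelium and not in fibroblasts, endothelium or podocytes. There were 3 libraries per group, and no label says whether each came from its own animal, so a p-value speaks only of the spread between libraries, which may be technical. The groups are called Tfam f/f-labelled and KspCre-labelled below. Reads assigned to genes totalled 19024208 to 34821537 in the Tfam f/f-labelled libraries and 30348281 to 48899266 in the KspCre-labelled ones.

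The targeted gene went against the labels. Tfam, which packages mitochondrial DNA, had 30.3, 33.6 and 23.2 normalized CPM (read counts scaled to a common library size and composition) in the Tfam f/f-labelled libraries and 63.1, 63.5 and 61.4 in the KspCre-labelled ones. Every library that should have lost Tfam in its tubule cells was above every library that should have kept it, and the difference was 2.15-fold (adjusted p = 0.00107, edgeR's quasi-likelihood test with Benjamini-Hochberg adjustment over 17308 genes). Every direction below is therefore between labels, not between known genotypes. Replicates are numbered 1 to 3 as in the labels, and values are given in that order. The kidney markers Umod of the thick ascending limb, Slc34a1 of the proximal tubule and Aqp2 of the collecting duct were detected in every library.

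Collagens are triple helices of 3 chains. Fibrillar collagens are secreted as procollagens, trimmed at both ends and laid down as banded fibres in the interstitium, and type I and type III are the chief ones of scar tissue. Type IV forms the sheet of basement membranes: the chains encoded by Col4a1 and Col4a2 are found under nearly all epithelia and vessels, and those of Col4a3, Col4a4 and Col4a5 form the mature glomerular membrane and are altered in Alport syndrome. Type VI forms beaded filaments between fibres and cells, and the remaining types coat fibrils, span membranes or anchor epithelia.

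The type IV genes lie in the genome as pairs that start next to each other and run in opposite directions, and the pairs behaved differently here, so the stretches between them are shown. The sequences are from RefSeq's promoter windows for build GRCm38.p6, written 5′ to 3′. Col4a1 (minus strand) and Col4a2 (plus strand) on chromosome 8 overlap by 22 bases at the ends of their first exons, which are in capitals at chr8:11312801-11312830, plus strand.
Col4a1 and Col4a2: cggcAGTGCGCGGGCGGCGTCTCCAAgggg
Col4a4 (minus strand) and Col4a3 (plus strand) on chromosome 1 start 71 bases apart. The stretch at chr1:82586820-82586950, minus strand, covers that gap and 30 bases of each first exon, and has no capitals because none of the 4 motifs searched lies in it.
Col4a3 and Col4a4: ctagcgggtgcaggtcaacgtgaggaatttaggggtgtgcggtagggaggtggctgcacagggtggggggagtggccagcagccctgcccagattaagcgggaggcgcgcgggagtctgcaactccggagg
Col3a1, which encodes the type III chain and is described below with the fibrillar genes, is shown as a contrast, from chr1:45311288-45311567, plus strand, with the motif TATAAA in capitals. The motif lies near the middle of the stretch, whereas only the last 30 bases are exon. The search took no account of distance from the start, so this match is not shown to be a working TATA box.
Col3a1: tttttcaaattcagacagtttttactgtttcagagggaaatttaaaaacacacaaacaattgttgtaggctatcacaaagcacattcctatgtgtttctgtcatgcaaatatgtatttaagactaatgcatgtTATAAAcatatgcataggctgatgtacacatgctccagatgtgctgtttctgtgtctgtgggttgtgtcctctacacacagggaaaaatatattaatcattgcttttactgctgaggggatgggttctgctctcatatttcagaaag
The Col4a1 and Col4a2 stretch is 80.0% G and C, the Col4a3 and Col4a4 stretch 66.4% and the Col3a1 stretch 36.1%.

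Windows of 250 bases before to 50 after the start were listed for 30 of the 37 genes, as 32 windows, and were searched on both strands for 4 motifs. The first was TATAAA, the core of the TATA box. CCAAT is a box found in many promoters, and GGGCGG is the core bound by Sp-family factors. The site of AP-1 factors was written as TGANTCA, with any base at N. GGGCGG was found in 20 of the 32 (62.5%), against 35.7% of all 32851 windows in the table. This motif holds only G and C. The G and C share of the collagen windows was not compared with that of all windows (median 52.7%). CCAAT was found in 10 (31.3%, against 37.4%), TATAAA in 4 (12.5%, against 13.6%) and TGANTCA in 1, the window of Col6a1 (3.13%, against 7.81%). The Col4a1 and Col4a2 windows both hold CCAAT and GGGCGG, and they share part of their sequence. The Col4a4 window holds none of the 4. A match describes letters in the window and is not a measured binding site.

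Collagen genes were called in both directions, and the types divided. Of 36 genes tested, 12 were higher in the Tfam f/f-labelled libraries, 10 were higher in the KspCre-labelled ones and 14 did not pass an adjusted p of 0.05. Over all 17308 genes tested, 24.9% were called higher in the Tfam f/f-labelled libraries and 21.3% in the KspCre-labelled ones, 46.2% in all. The median log2 fold change (labelled KspCre Tfam f/f minus labelled Tfam f/f, so that negative values are higher in the latter) was -0.17 over the collagen genes and -0.03 over all genes. Changes of 2-fold or more were called for 8 genes higher in the Tfam f/f-labelled libraries (13.2% of all genes) and 9 higher in the KspCre-labelled ones (8.75%). Normalized CPM did not overlap between the groups for 24 of the 36, of which 13 were higher in the Tfam f/f-labelled libraries (61.9% of all genes, 32.1% higher in those libraries and 29.8% in the others). Scaled by total counts alone, 16 collagen genes were higher in the Tfam f/f-labelled libraries and 9 in the KspCre-labelled ones, where 49.2% and 9.71% of all genes were, and scaled by nuclear counts alone the collagen counts were the same, where 41.9% and 11.8% of all genes were. The plot of fold changes by class shows types I, III, XI and XVIII to the left of zero and Col5a2, Col27a1, Col4a3, Col6a6 and Col19a1 to the right.

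**Figure D1:**
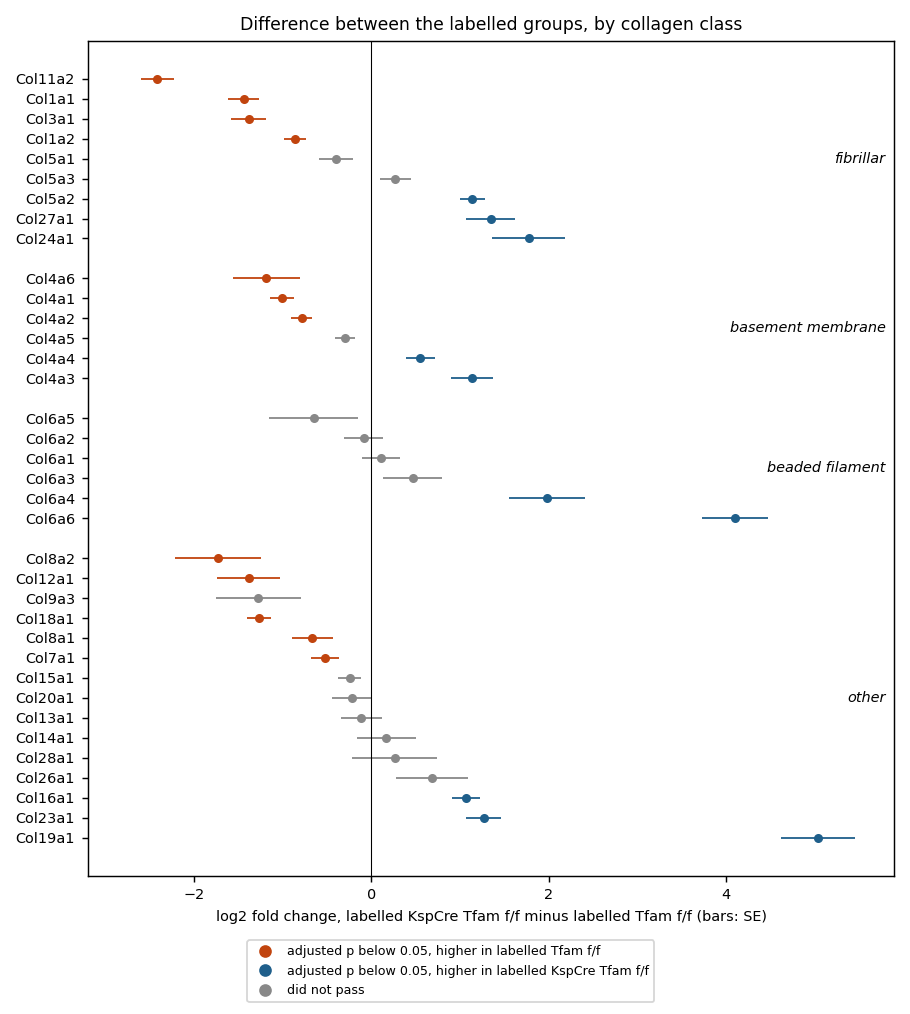
Log2 fold change of each tested collagen gene (x axis, labelled KspCre Tfam f/f minus labelled Tfam f/f) with its standard error as a bar, grouped by class and coloured by edgeR call. Each class except the beaded filament one has called genes on both sides of zero, and Col19a1 at 5.04 and Col11a2 at -2.41 are the ends of the range.

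In whole kidney, fewer cells of a type and less RNA per cell cannot be told apart, and markers of other cells moved with the labels. Of all 17308 genes tested, 24.9% were called higher in the Tfam f/f-labelled libraries and 21.3% in the KspCre-labelled ones. Counts of markers, here and below, are to be read beside these shares. All 8 injured tubule markers tested were higher in the Tfam f/f-labelled libraries, with sums of 5908, 3088 and 13160 normalized CPM against 823 to 886. Of 8 macrophage markers 7 were higher there, with sums of 141 to 380 against 121 to 132. All 8 proximal tubule markers were lower there, with sums of 2424 to 9551 against 17740 to 19330. Of 10 fibroblast markers 4 were higher there and 1 lower, with sums of 181 to 221 against 127 to 162. Of 8 mural and mesangial markers 3 were lower there and 1 higher, with sums of 177 to 229 against 287 to 311, and Ren1 and Myh11 were 2.98-fold and 2.04-fold higher in the KspCre-labelled libraries. Of 8 markers of the loop, distal tubule and collecting duct 4 were lower there and 1 higher, with sums of 4476 to 7482 against 10930 to 11980. No gene of these 6 lists was at 0 in all 6 libraries. The part of these shifts in the collagen values was not tested.

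The interstitial fibre genes of types I and III were all higher in the Tfam f/f-labelled libraries. Col1a1, the main chain of type I collagen (chromosome 11, 94936224 to 94953042 in mm10), had 69.3, 63.3 and 61.7 normalized CPM in the Tfam f/f-labelled libraries and 31.0, 20.4 and 20.0 in the KspCre-labelled ones. The groups did not overlap, and in the second group replicate 1 was the high one. The means were 64.8 ± 4.02 and 23.8 ± 6.24 (SD, n = 3 each), a 2.72-fold difference (log2 fold change -1.44, SE 0.18, adjusted p = 0.00103 by edgeR's quasi-likelihood test with Benjamini-Hochberg adjustment, as for every adjusted p below). Col1a2, the other chain of type I (chromosome 6, 4504814 to 4541544), had 83.3, 91.4 and 87.0 CPM against 56.2, 46.3 and 41.7. The groups did not overlap, and the difference was smaller, 1.81-fold (log2 fold change -0.86, SE 0.12, adjusted p = 0.00187). Col3a1, the single chain of type III (chromosome 1, 45311538 to 45349706), had 98.2, 113.7 and 78.2 CPM against 47.3, 33.7 and 29.99. It was 2.61-fold higher in the Tfam f/f-labelled libraries (log2 fold change -1.39, SE 0.20, adjusted p = 0.00195), and replicate 1 was again the highest of the KspCre-labelled ones.

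Chain ratios show how evenly the partners moved. Most type I molecules hold more Col1a1 than Col1a2 chains. Per exon length, Col1a1 stood at 1.58, 1.31 and 1.34 times Col1a2 in the Tfam f/f-labelled libraries, and at 1.04, 0.833 and 0.909 in the KspCre-labelled ones. The 2 sets did not overlap, and by this measure Col1a1 was the higher chain in every library only in the first. Which chain is the higher depends on the exon lengths used, 6563 bases for Col1a1 and 12426 for Col1a2. Before division by length, Col1a1 had fewer normalized CPM than Col1a2 in every library of both groups. Col3a1 over Col1a1 stood at 0.947, 1.20 and 0.848 against 1.02, 1.11 and 1.001, which overlap. These ratios are descriptions without a test.

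Among the fibroblast markers, Pdgfra had 16.6, 28.4 and 13.9 CPM in the Tfam f/f-labelled libraries and 27.8, 20.5 and 21.4 in the KspCre-labelled ones. Dcn, the proteoglycan decorin, had 30.2, 44.4 and 20.1 against 31.2, 22.5 and 21.2. For both genes the groups overlapped and the test did not pass. The 4 fibroblast markers called in the direction of Col1a1 and Col3a1 were Mfap5 (3.42-fold, adjusted p = 0.00557), Lum (2.28-fold, 0.0276), Dpt (1.98-fold, 0.0358) and Gsn (1.78-fold, 0.00139), and Scara5 was called in the other. Their part in the fibrillar values was not tested. Of 6 myofibroblast markers tested 1 was higher in the Tfam f/f-labelled libraries, with sums of 82.8 to 94.0 CPM against 69.4 to 92.4.

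The minor fibrillar genes did not share one direction. Col5a2, a type V chain that regulates the width of type I fibrils, had 15.6, 20.2 and 21.7 CPM in the Tfam f/f-labelled libraries and 45.3, 43.2 and 37.7 in the KspCre-labelled ones (2.20-fold higher in the latter, log2 fold change 1.14, SE 0.14, adjusted p = 0.00114). Its partner Col5a1 had 14.4, 20.0 and 12.7 CPM against 13.7, 10.8 and 11.3, with overlapping groups and a change that did not pass (log2 fold change -0.40, adjusted p = 0.122). Per exon length, Col5a2 over Col5a1 stood at 0.958, 0.895 and 1.52 in the Tfam f/f-labelled libraries and at 2.93, 3.54 and 2.97 in the KspCre-labelled ones, although the usual type V molecule holds more Col5a1 than Col5a2 chains. The third type V chain, Col5a3, did not pass (log2 fold change 0.27, adjusted p = 0.242). Col3a1 and Col5a2 are neighbours on chromosome 1 (Col5a2 at 45374321 to 45503282), and moved in opposite directions.

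Col11a2, a chain of the type XI collagen that seeds cartilage fibrils, had the largest relative difference in the direction of the Tfam f/f-labelled libraries. It stood at 5.69, 5.14 and 5.50 CPM there and at 0.939, 1.09 and 1.03 in the others (5.33-fold, log2 fold change -2.41, SE 0.19, adjusted p = 0.000182). Both groups were tight and far apart, at a low level. The cartilage chains Col2a1 and Col11a1 had only 10 and 30 reads over all 6 libraries. Of 8 cartilage and bone markers, Acan, Matn1 and Ibsp were at 0 in every library, and 3 had enough reads to be tested. Of those, Cnmd was higher in the Tfam f/f-labelled libraries (3.91-fold, adjusted p = 0.0300), from 9, 11 and 6 reads against 6, 1 and 1. Comp and Hapln1 did not pass. The part of such cells in the Col11a2 value was not tested.

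Col27a1, a fibrillar chain known from growing cartilage, was the fibrillar gene with the highest level per exon length in the KspCre-labelled libraries. It had 59.1, 79.6 and 33.3 CPM in the Tfam f/f-labelled libraries and 153.8, 139.2 and 144.6 in the KspCre-labelled ones (2.54-fold, log2 fold change 1.35, SE 0.28, adjusted p = 0.00762). Per kilobase of exon that is 4.40 ± 1.78 normalized CPM, below the 9.87 ± 0.613 of Col1a1, against 11.2 ± 0.566, above the 3.63 ± 0.951 of Col1a1 (SD, n = 3 each). The order of these genes by level was thus opposite between the labelled groups. Col24a1, a fibrillar chain of bone and cornea, was low, at 0.331, 0.685 and 0.252 CPM against 1.20, 1.40 and 1.98 (3.42-fold, adjusted p = 0.0108). The fold was 5.18 without Tfam f/f-labelled replicate 2.

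**Figure D2:**
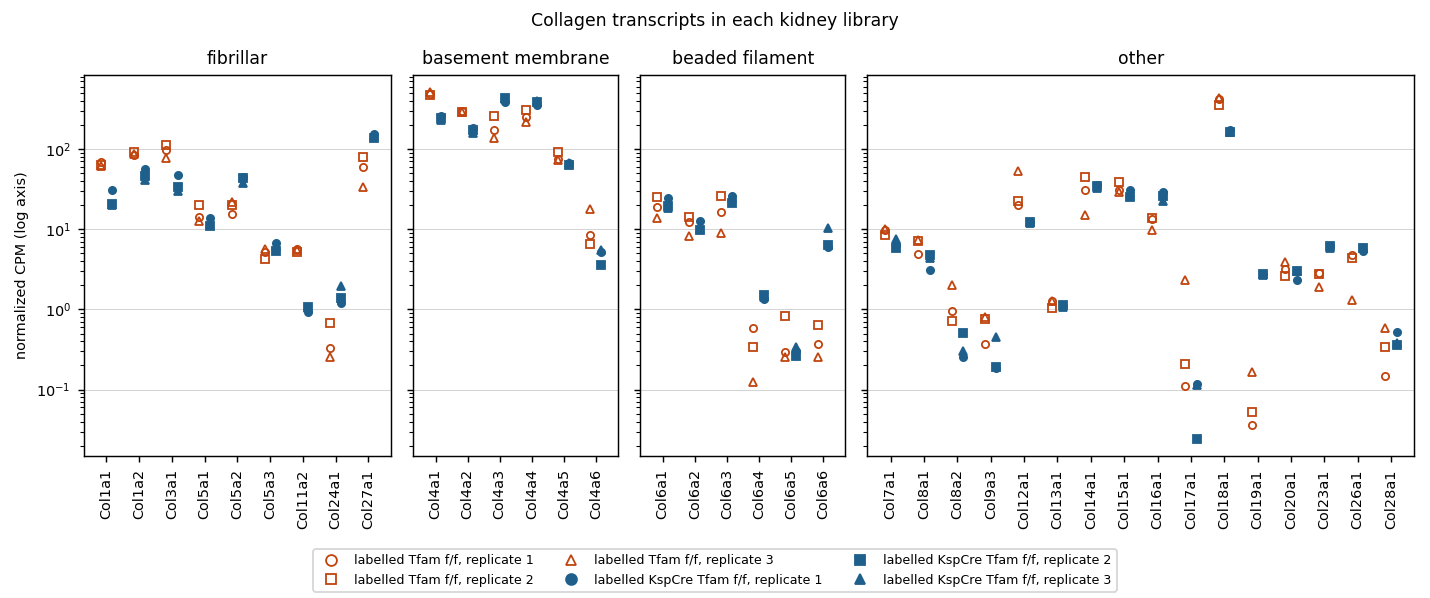
Normalized CPM (y axis, log scale) of each of the 37 collagen genes in each library, open symbols for the Tfam f/f-labelled libraries and filled ones for the KspCre-labelled ones, in panels by class. Col1a1, Col1a2, Col3a1, Col4a1, Col4a2 and Col18a1 have all open symbols above the filled ones, and Col5a2, Col27a1, Col4a3, Col6a6 and Col19a1 have the reverse.

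The type IV genes split by pair. Col4a1 and Col4a2, the chains of nearly all basement membranes, were higher in the Tfam f/f-labelled libraries. Col4a3 and Col4a4, the chains of the glomerular and some tubular basement membranes, were higher in the KspCre-labelled ones. Normalized CPM did not overlap between the groups for any of the 6 genes, 5 of which were called. Of all 17308 genes tested, 61.9% did not overlap and 46.2% were called.

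Col4a1 (chromosome 8, 11198423 to 11312826) had 486.2, 474.0 and 515.9 normalized CPM in the Tfam f/f-labelled libraries and 261.1, 242.9 and 231.1 in the KspCre-labelled ones. It was the most abundant collagen per exon length in the first group, at 65.9 ± 2.89 CPM per kilobase against 32.8 ± 2.03 in the second (SD, n = 3 each). The difference was 2.01-fold (log2 fold change -1.01, SE 0.14, adjusted p = 0.0015). Col4a2 (chromosome 8, 11312805 to 11449287), which runs the other way from the overlap printed above, had 299.3, 293.8 and 291.9 CPM against 181.9, 173.5 and 158.6. Its values in the Tfam f/f-labelled libraries lay close together, and the difference was 1.72-fold (log2 fold change -0.78, SE 0.12, adjusted p = 0.00224). The ratio of Col4a1 to Col4a2 per exon length was 1.44, 1.43 and 1.57 against 1.27, 1.24 and 1.29, which do not overlap.

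Col4a3 (chromosome 1, 82586921 to 82722059), an Alport syndrome gene, had 173.9, 256.9 and 135.9 CPM in the Tfam f/f-labelled libraries and 388.7, 437.7 and 419.0 in the KspCre-labelled ones. The Tfam f/f-labelled libraries were spread, with replicate 2 high and replicate 3 low, but all lay below the others. The difference was 2.20-fold (log2 fold change 1.14, SE 0.23, adjusted p = 0.00707). Col4a4 (chromosome 1, 82448423 to 82586849), its neighbour and partner, had 252.1, 306.8 and 217.9 CPM against 355.1, 384.8 and 400.5, in the same order of the Tfam f/f-labelled libraries. The difference was 1.47-fold (log2 fold change 0.55, SE 0.16, adjusted p = 0.0268). This call was lost without Tfam f/f-labelled replicate 1 (adjusted p = 0.0833) and without KspCre-labelled replicate 1, 2 or 3 (0.0651, 0.0887 and 0.0995). It was also lost when libraries were scaled by their total counts alone (log2 fold change 0.14, adjusted p = 0.417), and the adjusted p ran from 0.00231 to 0.417 over the alternatives. Per exon length, Col4a3 over Col4a4 stood at 0.734, 0.892 and 0.664 in the Tfam f/f-labelled libraries and at 1.17, 1.21 and 1.11 in the KspCre-labelled ones.

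The pairs crossed in order of level. The sum of Col4a1 and Col4a2 per exon length was 2.68, 1.97 and 3.31 times the sum of Col4a3 and Col4a4 in the Tfam f/f-labelled libraries, and 0.862, 0.733 and 0.688 times in the KspCre-labelled ones. The means were 2.66 ± 0.671 and 0.761 ± 0.0903 (SD, n = 3 each). In the first group every library had more of the ubiquitous pair, and in the second every library had more of the Alport pair. The ratio needs no scaling between libraries, since all 4 genes are read within each one.

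**Figure D3:**
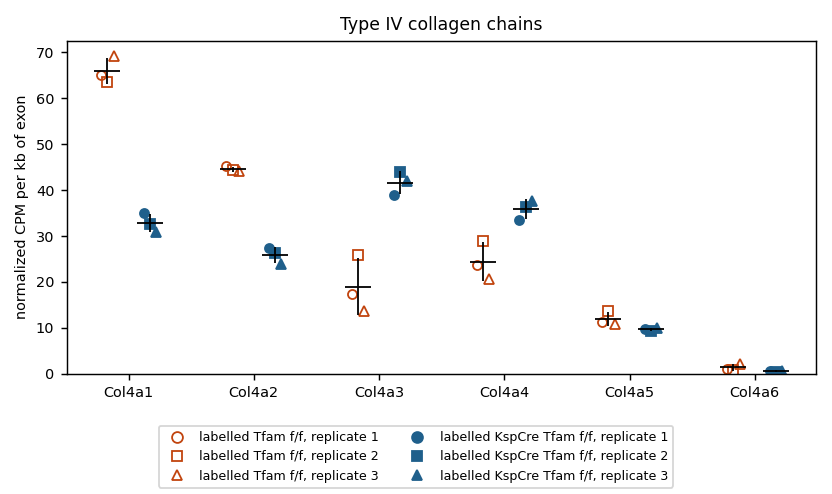
Type IV collagen chains in normalized CPM per kilobase of exon (y axis, linear from 0) in each library, with crosses at the group mean and SD of 3 libraries. The means of Col4a1 and Col4a2 are above those of Col4a3 and Col4a4 in the Tfam f/f-labelled libraries, while the means of Col4a3 and Col4a4 are above those of the other pair in the KspCre-labelled ones.

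The pair on the X chromosome showed smaller values. Col4a5 (141475385 to 141689234), which joins the Col4a3 and Col4a4 chains in one molecule, had 75.2, 92.4 and 73.4 CPM in the Tfam f/f-labelled libraries and 66.2, 62.6 and 67.0 in the KspCre-labelled ones. The groups did not overlap, yet the test did not pass (log2 fold change -0.30, SE 0.11, adjusted p = 0.0572), and the value had the opposite sign to those of Col4a3 and Col4a4. Col4a6 (141165403 to 141474076), a chain of Bowman's capsule and smooth muscle, was low, at 8.41, 6.48 and 17.7 CPM against 5.24, 3.58 and 5.46. It was 2.28-fold higher in the Tfam f/f-labelled libraries (log2 fold change -1.19, SE 0.38, adjusted p = 0.0361), with replicate 3 far above the other two. That call was lost without Tfam f/f-labelled replicate 1 (adjusted p = 0.0572), without KspCre-labelled replicate 1, 2 or 3 (0.0821, 0.121 and 0.0746) and in other alternatives, with a range of 0.00595 to 0.121. The starts of this pair are 1308 bases apart.

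Markers of podocytes, which make the Alport chains, also differed between the labels. Of 8 podocyte markers 4 were higher in the KspCre-labelled libraries and 4 did not pass, with sums of 222 to 328 CPM in the Tfam f/f-labelled libraries and 395 to 455 in the KspCre-labelled ones. Nphs1, the slit diaphragm protein nephrin, had 14.4, 23.2 and 21.1 CPM against 34.3, 34.4 and 29.7. Of 8 endothelial markers 1 was higher in the KspCre-labelled libraries, with sums of 221 to 430 against 383 to 402. No podocyte or endothelial marker was at 0 in all libraries. By replicate, the Tfam f/f-labelled sums were 222, 328 and 295 for podocyte markers and 287, 430 and 221 for endothelial ones. They were 6006, 9551 and 2424 for proximal tubule markers and 5766, 7482 and 4476 for those of the loop, distal tubule and collecting duct. Col4a3, Col4a4 and these sums, except the podocyte one, were lowest in replicate 3. The part of any of these cells in the type IV values was not tested.

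The main type VI genes did not pass the test, and 2 of the 3 rarer chains did. Col6a1, a chain of the basic filament, had 18.9, 25.0 and 13.9 CPM in the Tfam f/f-labelled libraries and 24.3, 19.5 and 18.6 in the KspCre-labelled ones, and was the type VI gene with the highest level per exon length in both groups (log2 fold change 0.11, adjusted p = 0.699). Its partner Col6a2 had a log2 fold change of -0.09 (adjusted p = 0.769). Col6a3, the third chain, had 16.5, 25.8 and 8.86 CPM against 25.8, 21.02 and 24.2 (log2 fold change 0.47, adjusted p = 0.281). Leaving out Tfam f/f-labelled replicate 2 brought Col6a3 below the threshold, with an adjusted p of 0.0273. All 6 type VI genes were lowest in replicate 3 among the Tfam f/f-labelled libraries, and 5 of the 6 were highest in replicate 2.

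Col6a6, which can take the place of the Col6a3 chain, differed most in this class (chromosome 9, 105687809 to 105828160). It had 0.367, 0.632 and 0.252 CPM in the Tfam f/f-labelled libraries, from 10, 24 and 6 reads, and 6.04, 6.43 and 10.3 in the KspCre-labelled ones, from 257, 266 and 269 reads. The groups were far apart, by 17.2-fold (log2 fold change 4.11, SE 0.37, adjusted p = 0.000326). Per exon length, Col6a6 over Col6a3 stood at 0.0290, 0.0320 and 0.0371 against 0.306, 0.399 and 0.553. Col6a4, a related chain, had 0.588, 0.343 and 0.126 CPM against 1.34, 1.498 and 1.41 (3.94-fold, log2 fold change 1.98, SE 0.43, adjusted p = 0.00862). Col6a5, the remaining chain of this kind, had 78 reads in all and did not pass (log2 fold change -0.65, adjusted p = 0.312). These 3 genes are neighbours on chromosome 9, between 105687809 and 106096783.

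Among the other types, Col18a1 carried most of the reads. This basement membrane collagen, whose end fragment is endostatin (chromosome 10, 77052178 to 77166548), had 424.9, 352.5 and 433.5 CPM in the Tfam f/f-labelled libraries and 174.2, 164.7 and 163.0 in the KspCre-labelled ones. The groups were far apart. The difference was 2.41-fold (log2 fold change -1.27, SE 0.14, adjusted p = 0.00067), and per kilobase of exon the means were 57.5 ± 6.34 and 23.8 ± 0.864 CPM (SD, n = 3 each), second to Col4a1 in the first group. Col15a1, the other collagen of its family, had 30.7, 38.6 and 29.3 CPM against 30.7, 25.0 and 27.4 and did not pass (log2 fold change -0.25, adjusted p = 0.166).

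Col19a1, a fibril-associated collagen of basement membrane zones, had the largest relative difference of all the collagen genes. It had 1, 2 and 4 reads in the Tfam f/f-labelled libraries and 118, 114 and 71 in the KspCre-labelled ones, or 0.0367, 0.0527 and 0.168 CPM against 2.77, 2.75 and 2.71. It was nearly absent from the first group and present at an even level in the second. The fitted log2 fold change was 5.04 (SE 0.42, adjusted p = 0.000229, 32.9-fold), and the fold was 55.4 without Tfam f/f-labelled replicate 3, so its size rests on few reads. Col19a1 lies on chromosome 1 at 24261890 to 24587472.

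Other fibril-associated collagens went both ways. Col16a1, which sits at the rim of fibrils and near basement membranes, had 13.3, 13.8 and 9.70 CPM in the Tfam f/f-labelled libraries and 28.9, 25.6 and 22.8 in the KspCre-labelled ones (2.10-fold, log2 fold change 1.07, SE 0.16, adjusted p = 0.00228). Col12a1, which bridges type I fibrils, had 20.2, 22.5 and 53.3 against 12.2, 12.4 and 12.0. It was 2.61-fold higher in the Tfam f/f-labelled libraries (log2 fold change -1.39, SE 0.36, adjusted p = 0.0169), with replicate 3 standing apart from the others. The call was lost without KspCre-labelled replicate 1, 2 or 3 (adjusted p = 0.0588, 0.0584 and 0.0590). That replicate 3 was also the highest in the sums of the injured tubule, macrophage and lymphocyte markers, and the part of those cells in its Col12a1 value was not tested. Col14a1, a close relative, had 30.6, 45.3 and 15.02 CPM against 35.5, 34.1 and 33.1, with replicate 3 the low one, and did not pass (log2 fold change 0.17, adjusted p = 0.698).

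Of the transmembrane collagens, Col23a1 had 2.86, 2.74 and 1.93 CPM in the Tfam f/f-labelled libraries and 6.20, 6.16 and 5.84 in the KspCre-labelled ones, which do not overlap (2.41-fold, log2 fold change 1.27, SE 0.20, adjusted p = 0.00259). Col13a1, of neuromuscular junctions and other adhesion sites, did not pass (log2 fold change -0.11). Col17a1, of hemidesmosomes, was too low to be tested, with 3, 8 and 55 reads against 5, 1 and 3, so that most of its reads came from Tfam f/f-labelled replicate 3.

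The low genes Col7a1, Col8a1 and Col8a2 were higher in the Tfam f/f-labelled libraries, with calls that were lost when some single libraries were left out. Col7a1, of the anchoring fibrils under epithelia, had 9.80, 8.56 and 9.95 CPM against 6.34, 5.798 and 7.59 (1.44-fold, adjusted p = 0.0273). Its adjusted p was 0.0737, 0.103 and 0.120 without Tfam f/f-labelled replicate 1 and KspCre-labelled replicates 1 and 2. Col8a1, a short chain of vessel walls, had 4.96, 7.11 and 7.26 against 3.12, 4.74 and 4.35 (1.59-fold, adjusted p = 0.0467). The latter call was lost without any 1 of 5 libraries (Tfam f/f-labelled replicates 2 and 3, KspCre-labelled replicates 1, 2 and 3), with adjusted p of 0.101, 0.0842, 0.159, 0.0723 and 0.106. Its partner Col8a2 had 0.955, 0.711 and 2.01 against 0.258, 0.507 and 0.305 (3.32-fold, adjusted p = 0.0222), a call lost without KspCre-labelled replicate 1 or 3 (0.0818 and 0.0746). Where the calls were lost, the log2 fold change ran from -0.49 to -0.43 for Col7a1 (-0.52 with all libraries), from -0.78 to -0.49 for Col8a1 (-0.67) and from -1.64 to -1.52 for Col8a2 (-1.73), with fewer libraries tested. The groups did not overlap for any of these 3 genes.

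The remaining genes did not pass. Col26a1 had 4.77, 4.43 and 1.30 CPM against 5.43, 5.82 and 5.84, which do not overlap (log2 fold change 0.69, adjusted p = 0.197). Col9a3 had a log2 fold change of -1.28 at a mean of 0.643 ± 0.239 CPM against 0.280 ± 0.154 (SD, n = 3 each, adjusted p = 0.0612). Col20a1 (log2 fold change -0.22, adjusted p = 0.449) and Col28a1 (log2 fold change 0.26, adjusted p = 0.675) lay closer to zero. At the edge of the sum of 60 reads, Col17a1 with 75 and Col6a5 and Col28a1 with 78 each were just inside, and Col25a1 with 57 was just outside.

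By class, the fibrillar genes had 4 higher in the Tfam f/f-labelled libraries, 3 higher in the KspCre-labelled ones and 2 that did not pass, with a median log2 fold change of -0.40. Of the 6 type IV genes, 3 were higher in the Tfam f/f-labelled libraries, 2 in the KspCre-labelled ones and 1 did not pass (median -0.54). The type VI genes had 0, 2 and 4 in the same order (median 0.29), and the 0 was also 0 at an unadjusted edgeR p of 0.05, by DESeq2 and by limma voom. Of 15 tested genes of other types, 5 were higher in the Tfam f/f-labelled libraries, 3 in the KspCre-labelled ones and 7 did not pass (median -0.22). Beside these counts, 24.9% of all 17308 genes tested were called higher in the Tfam f/f-labelled libraries and 21.3% in the KspCre-labelled ones (median -0.03).

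All 37 genes together made 2243, 2397 and 2163 normalized CPM in the Tfam f/f-labelled libraries and 1995, 1957 and 1931 in the KspCre-labelled ones, a ratio of means of 1.16. The type IV sum was 1326 ± 92.8 CPM against 1282 ± 23.4, a difference smaller than the spread of the first group. The fibrillar sum was 351.8 ± 46.1 against 317.4 ± 33.8, also within that spread, with Col1a1, Col1a2 and Col3a1 higher on one side and Col27a1 and Col5a2 on the other. The type VI sum was 49.1 ± 17.7 against 64.7 ± 5.99, and the direction of this difference was lost when libraries were scaled by total counts alone. Of the 4 class sums, only that of the other types did not overlap between the groups, at 540.6 ± 36.1 against 297.4 ± 10.9 (all SD, n = 3 each), and Col18a1 held most of it. Type IV made up 58.5% ± 1.07 of collagen reads in the Tfam f/f-labelled libraries and 65.4% ± 2.00 in the KspCre-labelled ones. No test was made of these sums.

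**Figure D4:**
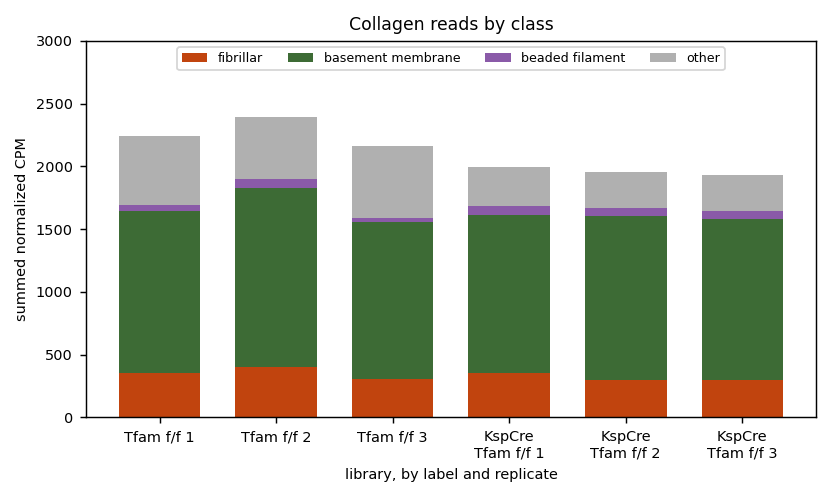
Summed normalized CPM of the collagen genes in each library (y axis, linear from 0), stacked by class. The 3 Tfam f/f-labelled libraries reach 2163 to 2397 and the 3 KspCre-labelled ones 1931 to 1995, with the other types making up most of the gap.

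The Tfam f/f-labelled libraries were the more uneven group, and not only for collagens. Over all genes tested, chi-square per degree of freedom between replicates was 62.9 to 163 there and 7.05 to 11.8 in the KspCre-labelled group. The highest of the 3 Tfam f/f-labelled values was 2 or more times the lowest for 15 of the 37 collagen genes. In the KspCre-labelled libraries this held for 2, and the median of that ratio was 1.58 against 1.25. Replicate 3 was the lowest of its group for 20 genes and the highest for 14, and replicate 2 the highest for 16. Replicate 2 of that group had the highest sum of adipocyte markers (141 CPM, against 42.0 and 39.3 in replicates 1 and 3, and 30.4 to 48.2 in the other group), and replicate 3 the lowest sum of proximal tubule markers. Mesothelium and capsule markers summed to 39.3 to 73.3 CPM in the Tfam f/f-labelled libraries and 5.07 to 9.73 in the others, with 1 of 3 tested genes called. That gene, Krt19, which other epithelia also express, held most of the sum (47.4, 32.2 and 69.96 CPM against 4.32, 2.32 and 3.82), and Msln and Upk3b did not pass. Urothelial markers summed to 8.56 to 35.2 against 11.7 to 20.2, with 1 of 8 higher in the Tfam f/f-labelled libraries and 5 lower. The 1 was Krt20 (4.30, 1.29 and 29.96 CPM against 0.094, 0.072 and 0.076), which held most of the sum of 35.2 in replicate 3. Among the 5, Upk1b and Upk2 were 16.6-fold and 20.3-fold higher in the KspCre-labelled libraries. The part of these cells in the collagen values was not tested.

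Genes that build and anchor collagen were called in both directions, and no test compared the steps. Of 81 genes listed, 80 were found and 77 tested. Of those tested, 27 were higher in the Tfam f/f-labelled libraries, 23 were higher in the KspCre-labelled ones and 27 did not pass. Over all 17308 genes tested, 24.9% and 21.3% were called in these directions. The counts by step, here and below, are to be read beside those shares. Among 14 prolyl and lysyl hydroxylases and glycosyltransferases, which modify the chains in the endoplasmic reticulum, 7 were higher in the KspCre-labelled libraries and 3 in the others. P4ha1, a subunit of prolyl 4-hydroxylase, was 2.13-fold higher in the KspCre-labelled libraries (30.9, 32.5 and 23.0 CPM against 64.0, 61.7 and 58.6, adjusted p = 0.00113). Plod2, a lysyl hydroxylase, was 1.73-fold (adjusted p = 0.00142) and Crtap, of the prolyl 3-hydroxylase complex, 1.58-fold higher in the same libraries (adjusted p = 0.00139). Among 8 genes of folding and export, 4 were higher in the KspCre-labelled libraries and 1 in the others. The 4 fell to 0 by edgeR without Tfam f/f-labelled replicate 1 or without any 1 KspCre-labelled library, where 3 to 4 were at an unadjusted p under 0.05. Fkbp10, a collagen foldase, was 1.83-fold higher in the Tfam f/f-labelled libraries (adjusted p = 0.00478). Hsp90b1, a chaperone, was 1.44-fold and Mia3, the receptor that loads procollagen for export, 1.29-fold higher in the KspCre-labelled ones (adjusted p = 0.0173 and 0.0185). Both of these calls were lost without Tfam f/f-labelled replicate 1 (0.0576 and 0.0504) or without KspCre-labelled replicate 1, 2 or 3 (0.056 to 0.0818 for Hsp90b1 and 0.0621 to 0.0809 for Mia3).

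Of 7 crosslinking genes tested, 3 were higher in the Tfam f/f-labelled libraries (2 to 3 when 1 library was left out) and 1 in the others. Among the lysyl oxidases, which crosslink fibres, Loxl1 was 1.38-fold higher in the Tfam f/f-labelled libraries (adjusted p = 0.0361), and Loxl2 and Loxl3 did not pass (0.170 and 0.0504). Loxl4 had 64.6, 63.7 and 33.9 CPM in the Tfam f/f-labelled libraries and 1.48, 1.33 and 1.98 in the KspCre-labelled ones (34.4-fold, adjusted p = 7.92e-05). Lox, the founding enzyme of the family, had 5.55, 7.09 and 9.49 against 2.33, 1.55 and 1.76 (3.91-fold, adjusted p = 0.00147). Tgm2, a transglutaminase, was 1.32-fold higher in the KspCre-labelled libraries (adjusted p = 0.0225), a call lost without Tfam f/f-labelled replicate 1 (0.0578) or KspCre-labelled replicate 1, 2 or 3 (0.0646 to 0.0957). Of 9 genes of propeptide cleavage, 4 were higher in the Tfam f/f-labelled libraries and 3 in the others. Bmp1, which cuts the C-terminal propeptide of fibrillar procollagens, was 2.33-fold (adjusted p = 0.00228) and its enhancer Pcolce 1.61-fold (adjusted p = 0.00359) higher in the Tfam f/f-labelled libraries. Mep1b, a meprin subunit that can cut procollagen and is abundant in the proximal tubule brush border, was 8.05-fold higher in the KspCre-labelled ones (adjusted p = 0.00267). The proximal tubule markers were also higher there, and the part of those cells in the Mep1b value was not tested.

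Fibril-associated proteins had 5 of 12 higher in the Tfam f/f-labelled libraries and 2 higher in the KspCre-labelled ones. The 5 became 2 without Tfam f/f-labelled replicate 2 or KspCre-labelled replicate 2 or 3. The 2 became 1 without Tfam f/f-labelled replicate 1 or 3 or KspCre-labelled replicate 1 or 3, and 4 without Tfam f/f-labelled replicate 2. Fn1, fibronectin, on which collagen fibrils assemble, had 277.4, 227.9 and 218.0 CPM against 36.7, 34.8 and 33.0 (6.92-fold, adjusted p = 3.08e-05). Sparc, a collagen-binding glycoprotein, was 1.63-fold higher in the same libraries (adjusted p = 0.00276), and Fmod, fibromodulin, was 2.89-fold higher in the KspCre-labelled ones (adjusted p = 0.00352). Of 15 basement membrane partners of type IV collagen, 7 were higher in the Tfam f/f-labelled libraries and 5 in the others, the latter being 2 without Tfam f/f-labelled replicate 1 or without any 1 KspCre-labelled library. Hspg2, perlecan, was 1.88-fold higher in the Tfam f/f-labelled libraries (adjusted p = 0.000558). Lama3, a laminin alpha chain, was 2.58-fold higher in the KspCre-labelled ones (adjusted p = 0.000385). Of 12 collagen receptors tested, 4 were higher in the Tfam f/f-labelled libraries and 1 in the others. The 4 became 2 without any 1 KspCre-labelled library. The 1 became 0 by edgeR without Tfam f/f-labelled replicate 1 or any 1 KspCre-labelled library, with 1 at an unadjusted p under 0.05 each time. Itga11, an integrin subunit for fibrillar collagen, was 3.56-fold higher in the Tfam f/f-labelled libraries (adjusted p = 0.0173), a call lost without KspCre-labelled replicate 1 (0.0597). Lair1, a collagen receptor of leukocytes, was 4.31-fold higher (adjusted p = 0.0105), and 2.58-fold without Tfam f/f-labelled replicate 3, the library with the most macrophage marker RNA. The part of macrophages or other cells in the Lair1 value was not tested. Antxr1, a receptor that binds collagen, was 1.5-fold higher in the Tfam f/f-labelled libraries (adjusted p = 0.0128). This call was lost without KspCre-labelled replicate 2 or 3 (0.0504 and 0.0613).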

How the data were processed

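Poly A+ RNA was sequenced as paired reads of 150 bases, per the labels' protocols. The authors deposited raw counts of reads per gene; the submitters' processing notes name mm10, STAR 2.4.1d, HTSeq 0.11.0, Trim Galore and FastQC. How strand was handled in counting, and with which annotation release, is not given in the sources used here. Reads shared with overlapping genes (at most 6.07% of a gene's exon length) are therefore uncertain. The summary lines without a gene, 16.0% to 20.4% of all lines' counts, were left out.

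The test was edgeR 4.0.16's robust quasi-likelihood test under R 4.3.3, with the labelled group alone in the model, TMM factors, filterByExpr (minimum count 10, minimum total 15) and calls below an adjusted p of 0.05. Lengths and positions came from GENCODE M21 exons. Libraries differed by more than sampling noise (chi-square per degree of freedom 62.9 to 163 and 7.05 to 11.8), and were all kept as separate. The procedure was also run on simulated data with far fewer changed genes than were called here, and no result above rests on that run. DESeq2 1.42.0, limma 3.58.1 voom, other scalings, filters, thinning, the replicate block and leaving out each library were alternatives; leaving out libraries for the 7 pathway lists was chosen after seeing the data.

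The members, the pathway and marker lists and the naming rule were chosen with earlier results of these data known. The rule gave library values for the called genes of smallest p in each class, the highest level per class and head-to-head pairs, and up to 3 called genes per pathway list, of which 1 is not reported here. Other genes named, among them Col5a1, Col6a3, Col14a1, Col15a1 and Col26a1, were chosen after their values were seen.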

Additional observations from a re-analysis of the deposited data

How the results depend on the processing

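Of the 22 called collagen genes, 16 were called under every alternative that tested them other than the minimum fold (7 higher in the Tfam f/f-labelled libraries, 9 higher in the KspCre-labelled ones), and 6 lost the call in some: Col4a4, Col4a6, Col7a1, Col8a1, Col8a2 and Col12a1. Under the minimum fold Col4a2 was lost too. None of the 22 reversed under these alternatives. Leaving out 1 library gave 7 to 13 genes higher in the Tfam f/f-labelled libraries (lowest without KspCre-labelled replicate 1), 1 to 2 type IV genes higher in the KspCre-labelled ones, 1 to 5 genes of other types higher in the Tfam f/f-labelled ones, and 10 to 28 pathway genes higher in the KspCre-labelled ones. The share of all genes called ran from 15.9% to 28.1% and from 12.7% to 26.4% in these directions, 16.4% being the first share without KspCre-labelled replicate 1. Leaving out a library also lowers the number of libraries tested. Testing against a minimum fold of 1.5 left 6 and 9 called genes (10.5% and 6.45% of all genes), with 1 type IV gene in each direction and 1 gene of other types higher in the Tfam f/f-labelled libraries. Moving types VII, XV and XVIII to the basement membrane class, and types XXVI and XXVIII to the beaded filament class, gave 5 and 3 genes higher in the Tfam f/f-labelled libraries in that class and the other class, and log2 ratios of summed level of -0.26 and -0.018. A mean CPM of at least 1 left 1 type VI gene higher in the KspCre-labelled libraries, since Col6a4 was below that level in the mean and not tested.

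Scaling by total counts alone shifted the median log2 fold change of all genes by -0.43, and scaling by nuclear counts alone by -0.31, and changes under them are to be read relative to that shift. Both gave 16 genes higher in the Tfam f/f-labelled libraries and 9 higher in the others (64% against 54.5%), with 1 type IV gene higher in the KspCre-labelled ones. The log2 ratios of summed level were -0.64 and -0.52 for all collagens, -0.57 and -0.45 for fibrillar, -0.47 and -0.36 for type IV and -1.30 and -1.18 for other types, each close to the value with TMM factors plus the shift of all genes. The type VI ratio of 0.40 became -0.0051 and 0.10, so that its direction was lost under total counts. The uncalled genes Col6a1 (-0.30 and -0.19), Col5a3 (-0.16 and -0.046), Col14a1 (-0.22 and -0.12) and Col28a1 (-0.17 and -0.053) reversed under these scalings. Leaving out 1 library, the log2 fold change ran from -0.081 to 0.37 for Col6a1, from -0.28 to 0.12 for Col6a2, from -0.15 to 0.60 for Col14a1 and from -0.079 to 0.72 for Col28a1, and that of Col6a1 was -0.01 without KspCre-labelled replicate 1. The cause was not tested.

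The replicate numbers are shared between the labels, but same-numbered libraries did not deviate together (correlations -0.174, -0.0702 and -0.0708), so they were not taken as pairs. A fit with the replicate number as a block called 12 and 9 collagen genes (20.7% and 18.6% of all genes), with 1 type IV gene, Col4a3, higher in the KspCre-labelled libraries and Col4a4 at an adjusted p of 0.0554 by edgeR. Genes with few reads, such as Col19a1, Col6a4 and Col24a1, have fold changes set by a handful of reads in the Tfam f/f-labelled libraries. With 3 libraries per label, smaller differences could not be resolved.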

Other observations

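The 7 collagen genes below a sum of 60 reads were Col9a1 with 2 reads over the 6 libraries, Col10a1 with 5, Col2a1 and Col22a1 with 10 each, Col9a2 with 11, Col11a1 with 30 and Col25a1 with 57. Col25a1, a transmembrane collagen, had enough reads to be tested, at 2, 4 and 0 in the Tfam f/f-labelled libraries and 22, 16 and 13 in the KspCre-labelled ones (log2 fold change 2.74, adjusted p = 0.00826 by edgeR's quasi-likelihood test). Lowering the minimum sum to 15 reads would have added Col11a1 and Col25a1 and made 12 and 11 called genes.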
